A study of Canis lupus familiaris with 9 samples.

Results

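Neural cell adhesion molecules of the immunoglobulin superfamily and adhesion molecules of synapses were followed in cultured cells of the dog (Canis lupus familiaris) through 10 genes. The 10 genes are L1CAM, CHL1, NRCAM, NFASC, NCAM1, CNTN1, NLGN4X, LRRC4C, LGI3 and LIN7A. They were taken by the symbol in the platform's gene table, and all 10 were found among the 15947 named genes. Each gene is represented by 1 probe set, the one with the highest mean over the 9 arrays. The genes were chosen by their signals on these same arrays, with the group differences known, so their levels and differences are a description and carry no p-value.

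The RNA came from 3 groups of primary cultures, with 3 Affymetrix arrays in each group. SKN cells are neural precursors grown from dog skin as spheres at first, in serum-free medium with 20 ng/mL EGF, 40 ng/mL FGF and 2% B-27, and the series title calls them adult. Brain cells are neural precursors grown from dog brain, and the labels at hand leave their medium unstated. Fibroblast cells came from dog skin and were kept in medium with 10% fetal bovine serum. No culture was treated before RNA extraction, and the skin was surplus tissue of pet dogs after routine surgery. The labels used here do not say which dog gave which culture, or whether the 3 arrays of a group stand for separate dogs, so every p-value measures only the spread between these arrays. The effects of medium and of cell type cannot be told apart here.

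As background, L1CAM, CHL1, NRCAM and NFASC form the L1 family, whose members span the membrane, bind partners on neighbouring cells with immunoglobulin and fibronectin domains, and hold on to the cytoskeleton through ankyrins. NCAM1 and the lipid-anchored CNTN1 are related adhesion molecules of neurons and glia, and they guide axon growth, bundling and contact with glia. NLGN4X, a neuroligin, and LRRC4C, a netrin-G ligand, sit on the receiving side of synapses and bind neurexins and netrin-G1. LGI3 is a secreted leucine-rich repeat protein, and LIN7A is a cytoplasmic PDZ-domain scaffold that works with CASK. Many of these molecules are also made by glia, Schwann cells and crest-derived cells, so expression alone does not mark a neuron.

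The deposited values are log2 signals, on which a difference of 1 unit is 2-fold, and the array medians lay between 4.715 and 4.786. Markers of other cell types moved with the groups. The mean of 10 measured neural crest and Schwann cell markers was 4.70 to 4.82 in SKN, 8.29 to 8.48 in Brain and 4.42 to 5.61 in Fibroblast. Of these 10 markers, 8 were called higher and 1 lower in Brain than in Fibroblast, where "called" means an adjusted p under 0.05 in limma's moderated test. CDH19, a cadherin of Schwann cell precursors, averaged 2.19 in SKN, 11.06 in Brain and 3.61 in Fibroblast. The 9 measured neural precursor markers averaged 4.14 to 4.20 in SKN, 4.43 to 4.69 in Brain and 4.26 to 4.52 in Fibroblast, and NES alone of them was called higher in Brain than in Fibroblast (1.68 ± 0.23 SE, adjusted p 0.00155 by limma). SOX2 read 7.36, 7.16 and 5.34 in Brain, against 5.00, 5.35 and 5.16 in Fibroblast. The 10 fibroblast matrix markers averaged 11.07 to 11.27 in SKN, 4.16, 4.19 and 5.85 in Brain 1, 2 and 3, and 10.61 to 10.99 in Fibroblast. All 10 matrix markers were called lower in Brain than in Fibroblast, and 1 was called higher in SKN than in Fibroblast. The label of Brain cells as neural precursors thus goes with high crest and Schwann cell markers and with few raised precursor markers. In SKN, also labelled neural precursors, 0 of the 9 precursor markers were called higher than in Brain or in Fibroblast. Of these 9 markers, 2 were called lower in SKN than in Brain, and matrix markers were high in SKN. The cultures are therefore called Brain and SKN by their labels throughout.

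Signal means of the remaining marker lists were as follows. In SKN, Brain and Fibroblast the oligodendrocyte lineage list (6 measured) ran from 5.09 to 5.21, 5.80 to 6.04 and 4.81 to 5.47. The neuron list (9) ran from 4.65 to 4.83, 4.60 to 4.76 and 3.65 to 4.03, and the astrocyte list (7) from 4.93 to 5.17, 4.16 to 4.42 and 4.69 to 4.93. The means of the melanocyte (6 measured, 3.12 to 3.67 over all arrays) and leukocyte and microglia (7, 2.88 to 3.34) lists stayed low. So did those of the endothelial (5, 3.64 to 3.91) and keratinocyte (4, 3.06 to 3.28) lists. Single genes in these lists still differed between groups. In SKN, Brain and Fibroblast the melanocyte marker MITF averaged 6.34, 4.51 and 6.85, and DCT averaged 3.46, 4.63 and 3.70. The endothelial marker KDR averaged 4.01, 5.65 and 5.33, and the leukocyte marker CD68 averaged 4.83, 4.77 and 6.06. The mean of the crest and Schwann cell markers was 5.61 in Fibroblast 1, 4.83 in Fibroblast 2 and 4.42 in Fibroblast 3. Fibroblast 1 is reported apart below, but it was not the only array to differ from its group. Over all named genes, it lay at least 1 log2 unit above both its group's other arrays for 162 genes. It lay as far below both for 55. These counts were 265 and 108 for SKN 1, and 136 and 188 for Brain 1. The part of these cell type markers in the differences below was not tested.

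Of the 10 adhesion genes, 9 were called lower in SKN than in Brain, where 11.7% of all named genes were called lower, and 0 were called higher, against 10.9%. Every SKN array lay below every Brain array for all 10 genes, an order found for 19.7% of all genes. In Brain against Fibroblast, 8 of the 10 were called higher and 0 lower, against 13.8% and 13.2% of all genes. Every Brain array lay above every Fibroblast array for 9 of the 10, NFASC being the exception, against 20.8% of all genes. In SKN against Fibroblast, LIN7A was called lower and 0 genes were called higher, against 2.10% and 2.45% of all genes. The median log2 difference over the 10 genes was -5.02 for SKN minus Brain, -0.24 for SKN minus Fibroblast and 3.76 for Brain minus Fibroblast, while over all genes it was 0.01, -0.04 and -0.06. Because these comparisons were known when the genes were chosen, nothing is read from the counts. In whole cultures, fewer cells of a type and less RNA per cell cannot be told apart.

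**Figure D1:**
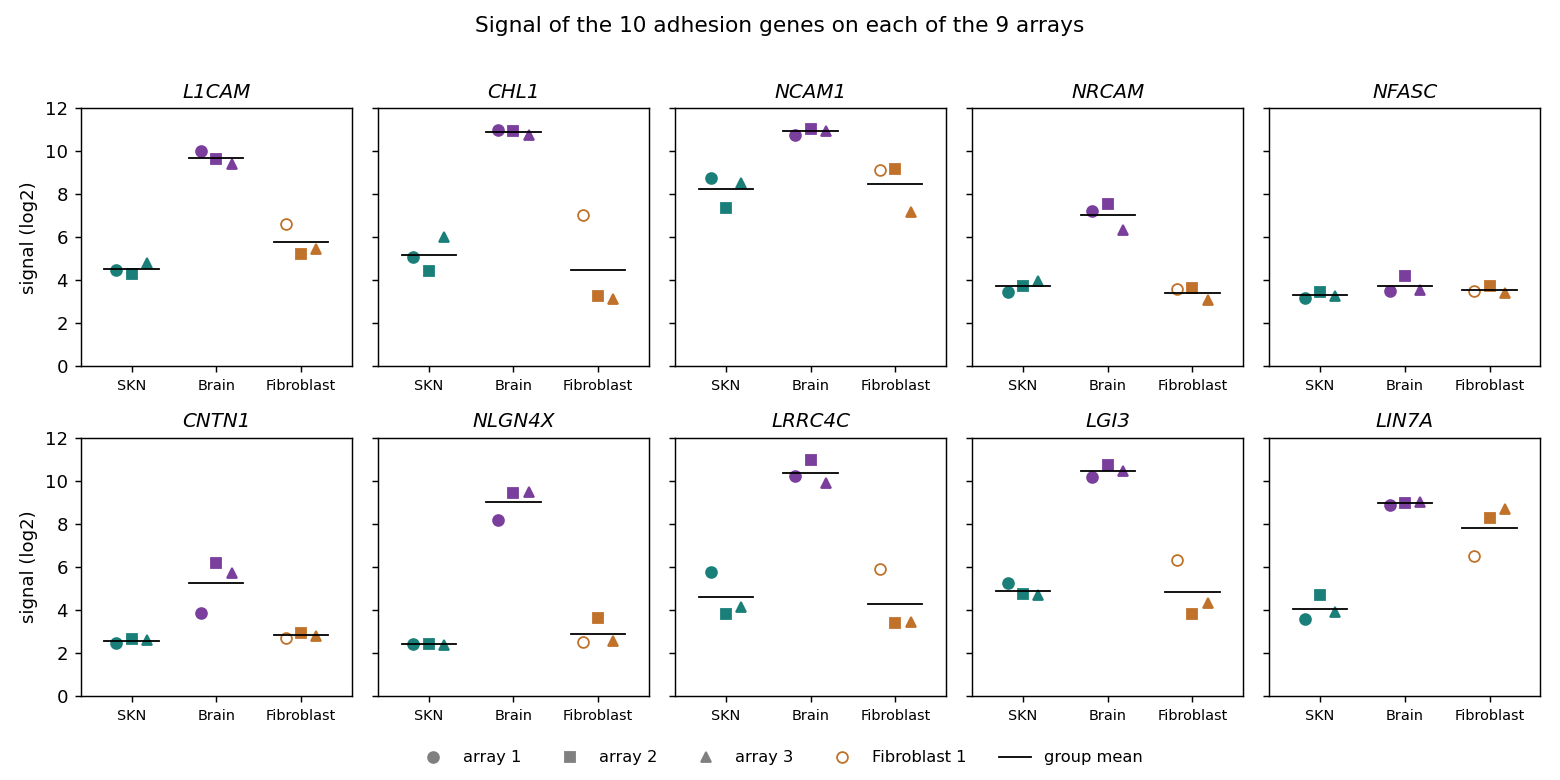
Log2 signal of each of the 10 genes (1 panel per gene) on the 3 SKN, 3 Brain and 3 Fibroblast arrays, with symbols for the array number, an open circle for Fibroblast 1 and a line at the group mean. Brain arrays sit highest in 9 panels, NFASC differs little between groups, and LIN7A is high in Brain and in Fibroblast 2 and 3 but low in SKN.

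The founding member of the L1 family had its highest signal in Brain and its lowest in SKN. L1CAM, a homophilic axonal adhesion molecule that crest-derived glia also carry, read 4.50, 4.30 and 4.82 in SKN, 10.00, 9.63 and 9.42 in Brain, and 6.61, 5.21 and 5.46 in Fibroblast. No groups overlapped, and the order was Brain, Fibroblast, SKN. The log2 difference was -5.14 ± 0.34 (SE) for SKN minus Brain and 3.92 ± 0.34 for Brain minus Fibroblast, with 3 arrays in each group. Here and below, the SE of a fit to all 9 arrays pools the spread of all 3 groups, so Fibroblast 1 also enters SKN minus Brain. With only SKN and Brain in the fit, the SE of SKN minus Brain was 0.20 for L1CAM. SKN minus Fibroblast was -1.22 ± 0.34, with SKN lower on each array, and did not pass the threshold over all probe sets. Without Fibroblast 1, L1CAM differed by -0.80 ± 0.22 for SKN minus Fibroblast and by 4.35 ± 0.22 for Brain minus Fibroblast.

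CHL1, the close homologue of L1, promotes neurite growth and cell migration. CHL1 read 5.07, 4.45 and 6.00 in SKN, 10.99, 10.96 and 10.74 in Brain, and 7.04, 3.25 and 3.12 in Fibroblast. The Brain arrays lay close together and far above the rest, while Fibroblast 1 stood well above Fibroblast 2 and 3 and above every SKN array. The differences were -5.72 ± 0.94 for SKN minus Brain and 6.43 ± 0.94 for Brain minus Fibroblast. With only SKN and Brain in the fit, the SE of SKN minus Brain was 0.38. SKN minus Fibroblast was 0.71 ± 0.94 with all arrays. Without Fibroblast 1 it was 1.99 ± 0.39 and was called higher in SKN, with 2 Fibroblast arrays left. That call ended when Brain 3 was left out as well. Leaving out the array known to be high for CHL1 raises this difference by construction, so nothing is read from the call.

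NRCAM, which gathers at nodes of Ranvier and on growing axons, was high in Brain alone. NRCAM read 3.44, 3.75 and 3.98 in SKN, 7.22, 7.53 and 6.32 in Brain, and 3.58, 3.62 and 3.08 in Fibroblast. SKN and Fibroblast overlapped, and Fibroblast 1 lay within the range of its group. The differences were -3.30 ± 0.31 for SKN minus Brain, 0.29 ± 0.31 for SKN minus Fibroblast and 3.60 ± 0.31 for Brain minus Fibroblast.

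NFASC, neurofascin, which anchors axon initial segments and the junctions between axons and glia, was the member with the smallest differences from Brain. NFASC read 3.16, 3.47 and 3.28 in SKN, 3.48, 4.19 and 3.57 in Brain, and 3.48, 3.74 and 3.41 in Fibroblast. Brain 2 was the highest array, and Brain and Fibroblast overlapped. SKN minus Brain was -0.44 ± 0.20, and Brain minus Fibroblast was 0.20 ± 0.20, which turned to -0.02 without Brain 2. NFASC read low in all 3 groups, which leaves its presence or absence unmeasured.

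NCAM1 was higher in Brain too, by less than L1CAM or CHL1. NCAM1, a homophilic adhesion molecule of neurons, glia and muscle, read 8.78, 7.38 and 8.55 in SKN, 10.78, 11.06 and 10.96 in Brain, and 9.13, 9.20 and 7.17 in Fibroblast. SKN and Fibroblast overlapped, with 1 low array in each, SKN 2 and Fibroblast 3. SKN minus Brain was -2.70 ± 0.56, SKN minus Fibroblast was -0.26 ± 0.56 and Brain minus Fibroblast was 2.43 ± 0.56. The call in Brain minus Fibroblast ended without Brain 2, and the sign of SKN minus Fibroblast turned when Fibroblast 1, Fibroblast 2 or SKN 2 was left out.

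CNTN1, contactin-1, a lipid-anchored partner of L1-family proteins and of paranodal complexes, varied within Brain. CNTN1 read 2.47, 2.63 and 2.62 in SKN, 3.86, 6.20 and 5.71 in Brain, and 2.71, 2.93 and 2.78 in Fibroblast. Brain 1 lay well below the other Brain arrays and yet above every SKN and Fibroblast array. The differences were -2.69 ± 0.50 for SKN minus Brain, -0.23 ± 0.50 for SKN minus Fibroblast and 2.45 ± 0.50 for Brain minus Fibroblast.

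NLGN4X was high on every Brain array and low elsewhere. NLGN4X, a neuroligin that binds neurexins across the synaptic cleft, read 2.43, 2.40 and 2.35 in SKN, 8.18, 9.43 and 9.46 in Brain, and 2.51, 3.62 and 2.54 in Fibroblast. The SKN arrays lay close together, Brain 1 was the low array of its group, as for CNTN1, and Fibroblast 2 rather than Fibroblast 1 was the high array of its group. SKN minus Brain was -6.63 ± 0.39, SKN minus Fibroblast was -0.50 ± 0.39 and Brain minus Fibroblast was 6.14 ± 0.39. The SKN readings are low, so these differences compare signals and are not measured ratios of RNA.

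NLGN4X was the only member with several probe sets, and its other probe sets, which the choice of 1 per gene left out, gave the same order. The first read 2.75, 2.71 and 2.72 in SKN, 5.69, 6.85 and 5.63 in Brain, and 3.08, 3.31 and 3.10 in Fibroblast, with SKN minus Brain at -3.33 ± 0.29. The other read 1.78, 2.15 and 2.29 in SKN, 5.21, 6.41 and 6.42 in Brain, and 1.79, 2.54 and 2.21 in Fibroblast, with SKN minus Brain at -3.94 ± 0.34. With the mean of the 3 probe sets in place of the highest, SKN minus Brain was -4.63 ± 0.30. The NLGN4X probe sets thus differed in the size of the Brain signal, not in which group was high.

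LRRC4C, the netrin-G ligand NGL-1, is a leucine-rich repeat receptor of the postsynaptic membrane. LRRC4C read 5.77, 3.83 and 4.15 in SKN, 10.24, 10.96 and 9.88 in Brain, and 5.92, 3.39 and 3.43 in Fibroblast. Brain was far above both other groups, which each held 1 higher array, SKN 1 and Fibroblast 1. The differences were -5.78 ± 0.75 for SKN minus Brain, 0.33 ± 0.75 for SKN minus Fibroblast and 6.11 ± 0.75 for Brain minus Fibroblast. Without Fibroblast 1, LRRC4C differed by 1.17 ± 0.57 for SKN minus Fibroblast, without a call, and by 6.95 ± 0.57 for Brain minus Fibroblast.

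LGI3, a secreted relative of the epilepsy protein LGI1, was likewise highest in Brain. LGI3 read 5.25, 4.73 and 4.71 in SKN, 10.16, 10.73 and 10.44 in Brain, and 6.32, 3.81 and 4.30 in Fibroblast. SKN lay between Fibroblast 1 and the other Fibroblast arrays. The differences were -5.55 ± 0.56 for SKN minus Brain, 0.08 ± 0.56 for SKN minus Fibroblast and 5.63 ± 0.56 for Brain minus Fibroblast. Without Fibroblast 1, LGI3 differed by 0.84 ± 0.25 for SKN minus Fibroblast, without a call, and by 6.38 ± 0.25 for Brain minus Fibroblast.

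LIN7A departed from the other members in its Fibroblast signal. LIN7A read 3.59, 4.69 and 3.91 in SKN, 8.90, 8.95 and 9.02 in Brain, and 6.50, 8.28 and 8.68 in Fibroblast. No groups overlapped, and the order was Brain, Fibroblast, SKN, as for L1CAM, but here Fibroblast lay near Brain. SKN minus Brain was -4.89 ± 0.52, SKN minus Fibroblast was -3.76 ± 0.52 and Brain minus Fibroblast was 1.14 ± 0.52. Fibroblast 1 was the lowest of its group, and without it Brain minus Fibroblast was 0.48 ± 0.30 and SKN minus Fibroblast was -4.42 ± 0.30. The LIN7A call in SKN minus Fibroblast was kept in all 9 removals of 1 array and was lost without variance moderation.

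**Figure D2:**
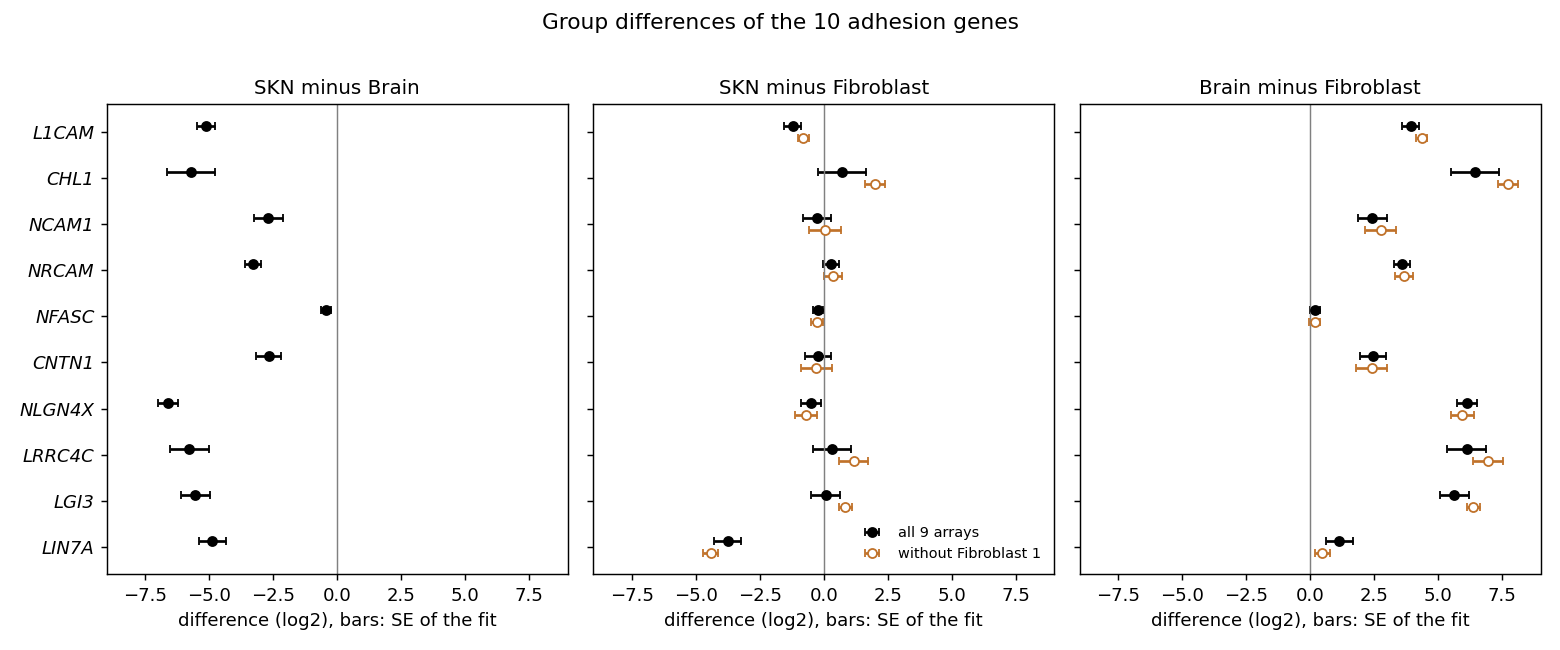
Log2 differences of the 10 genes in SKN minus Brain, SKN minus Fibroblast and Brain minus Fibroblast, with bars of 1 SE of the fit. Filled points are from all 9 arrays. Open points, drawn only for the comparisons with Fibroblast, are without Fibroblast 1. CHL1 has the largest shift when Fibroblast 1 is left out, to 1.99 for SKN minus Fibroblast and 7.72 for Brain minus Fibroblast, and LIN7A is the only gene called in SKN minus Fibroblast with all 9 arrays, while CHL1 is called too without Fibroblast 1.

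Fibroblast 1 departed from its group in several of these genes and in opposite directions. It lay at least 1 log2 unit above both other Fibroblast arrays for 4 of the 10 genes, CHL1, LRRC4C, LGI3 and L1CAM, where 1.02% of all genes did so, and as far below both for 1 gene, LIN7A, against 0.345% of all genes. Set against the mean of Fibroblast 2 and 3, Fibroblast 1 was higher by 3.86 for CHL1, 2.51 for LRRC4C, 2.26 for LGI3 and 1.27 for L1CAM, and LIN7A differed by -1.98. All 4 raised genes still read below every Brain array. NRCAM (0.22), NFASC (-0.09), CNTN1 (-0.15) and NLGN4X (-0.57) in Fibroblast 1 differed from that mean by less than Fibroblast 2 and 3 differed from each other, or by a like amount, although NRCAM, CNTN1 and NLGN4X were high in Brain. NCAM1 in Fibroblast 1 was higher than that mean by 0.94, while Fibroblast 2 exceeded Fibroblast 3 by 2.03. One array allows no test, and these genes were chosen with this array known.

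Of the 10 measured crest and Schwann cell markers, 4 lay at least 1 unit higher in Fibroblast 1 than in both other Fibroblast arrays. CDH19 read 5.86 in Fibroblast 1 against 2.14 and 2.82 in Fibroblast 2 and 3, EDNRB, an endothelin receptor, 5.41 against 3.36 and 2.94, NGFR, the low-affinity neurotrophin receptor, 7.32 against 5.50 and 5.60, and ERBB3, a neuregulin receptor, 5.68 against 4.26 and 3.84. The other 6 differed less from the mean of Fibroblast 2 and 3, by 0.28 for SOX10, 0.35 for TFAP2A, 0.25 for S100B, 0.26 for ITGB8, -0.08 for GAP43 and -0.26 for FOXD3. Of the 6 oligodendrocyte lineage markers 2 were as far above, UGT8, a myelin lipid enzyme, at 5.84 against 3.09 and 3.13, and PDGFRA, a PDGF receptor that fibroblasts also carry, at 7.69 against 6.65 and 6.30. Among 115 related adhesion genes 6 lay at least 1 unit above both other arrays, SLITRK6, NCAM2, NTNG1, CADM4, ADGRL2 and DLG2, and 3 lay as far below, MDGA1, GLDN and MDGA2. SLITRK6, a synaptic leucine-rich repeat protein, read 7.73 in Fibroblast 1 against 2.48 and 3.28, and NCAM2, the closest relative of NCAM1, read 6.57 against 3.19 and 2.98. The fibroblast matrix list averaged 10.61 in Fibroblast 1 against 10.99 and 10.75, and 1 of its 10 genes, DPT, lay at least 1 unit below both, at 7.52 against 9.05 and 8.80.

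**Figure D3:**
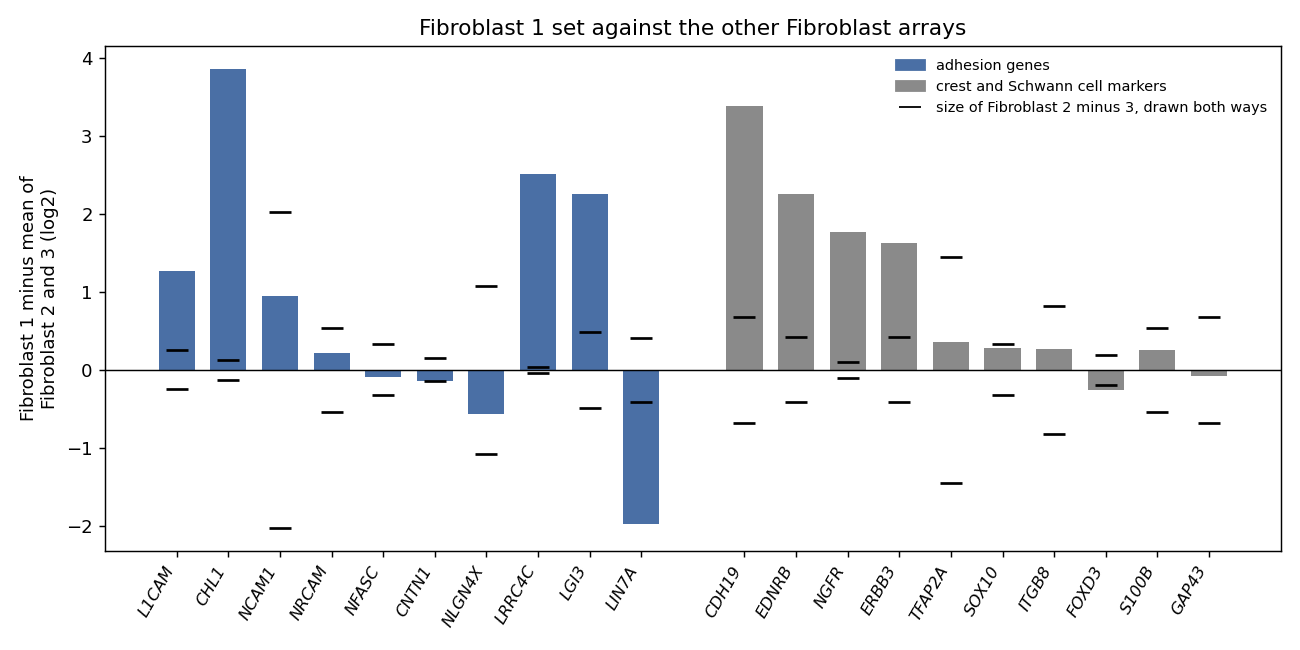
Log2 signal of Fibroblast 1 minus the mean of Fibroblast 2 and 3 for the 10 adhesion genes and for 10 crest and Schwann cell markers, with ticks at plus and minus the size of the difference between Fibroblast 2 and 3. CHL1 (3.86), LRRC4C (2.51), LGI3 (2.26) and L1CAM (1.27) and the markers CDH19, EDNRB, NGFR and ERBB3 stand above the ticks, while LIN7A (-1.98) and, by little, the crest marker FOXD3 (-0.26) stand below.

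Genes with a profile like that of a member were found by the root mean square difference between profiles over the 9 arrays, after each profile was centred on its own mean, among 15482 genes. The profile nearest to L1CAM was that of SNTB1, a syntrophin, at 0.31 log2 units, with means of 5.04 in SKN, 10.18 in Brain and 5.78 in Fibroblast. For NLGN4X it was PTPRT, a receptor phosphatase, at 0.46, for CNTN1 it was KIRREL3, a synaptic adhesion molecule, at 0.22, and for NRCAM it was IQGAP2 at 0.29. For CHL1 it was ST6GAL1, a sialyltransferase, at 0.69, and for LRRC4C it was SEMA3A, a repulsive axon guidance ligand, at 0.57. ST6GAL1 read 6.12 in Fibroblast 1 against a group mean of 4.18, and SEMA3A read 5.60 against 3.78. The nearest profiles were HID1 for NCAM1 (0.45), TMEM178B for LGI3 (0.46), LYPD6B for NFASC (0.10) and CNTNAP5 for LIN7A (0.65). NFASC has a small distance because neither NFASC nor LYPD6B varied much. Among the members themselves the closest pair was LRRC4C and LGI3, at 0.47, and both had a raised Fibroblast 1 and a top signal in Brain.

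Related genes that are no members were counted next, from 6 lists drawn up by gene family and role. Of 115 measured related genes, 36 (31.3%) were called lower and 8 (6.96%) higher in SKN than in Brain, beside the 11.7% and 10.9% of all genes given above. In Brain against Fibroblast 38 (33.0%) were called higher and 7 (6.09%) lower, beside 13.8% and 13.2%. In SKN against Fibroblast 5 (4.35%) were called higher and 2 (1.74%) lower, beside 2.45% and 2.10%, and the total of 7 ranged from 2, without SKN 1 or without SKN 3, to 7 when 1 array was left out. Without Fibroblast 1 the counts were 34 lower and 6 higher in SKN minus Brain, 34 higher and 9 lower in Brain minus Fibroblast, and 3 higher and 3 lower in SKN minus Fibroblast. The comparisons share arrays and are not independent of each other. The shares of all genes given here are also the background for the counts of each list below.

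**Figure D4:**
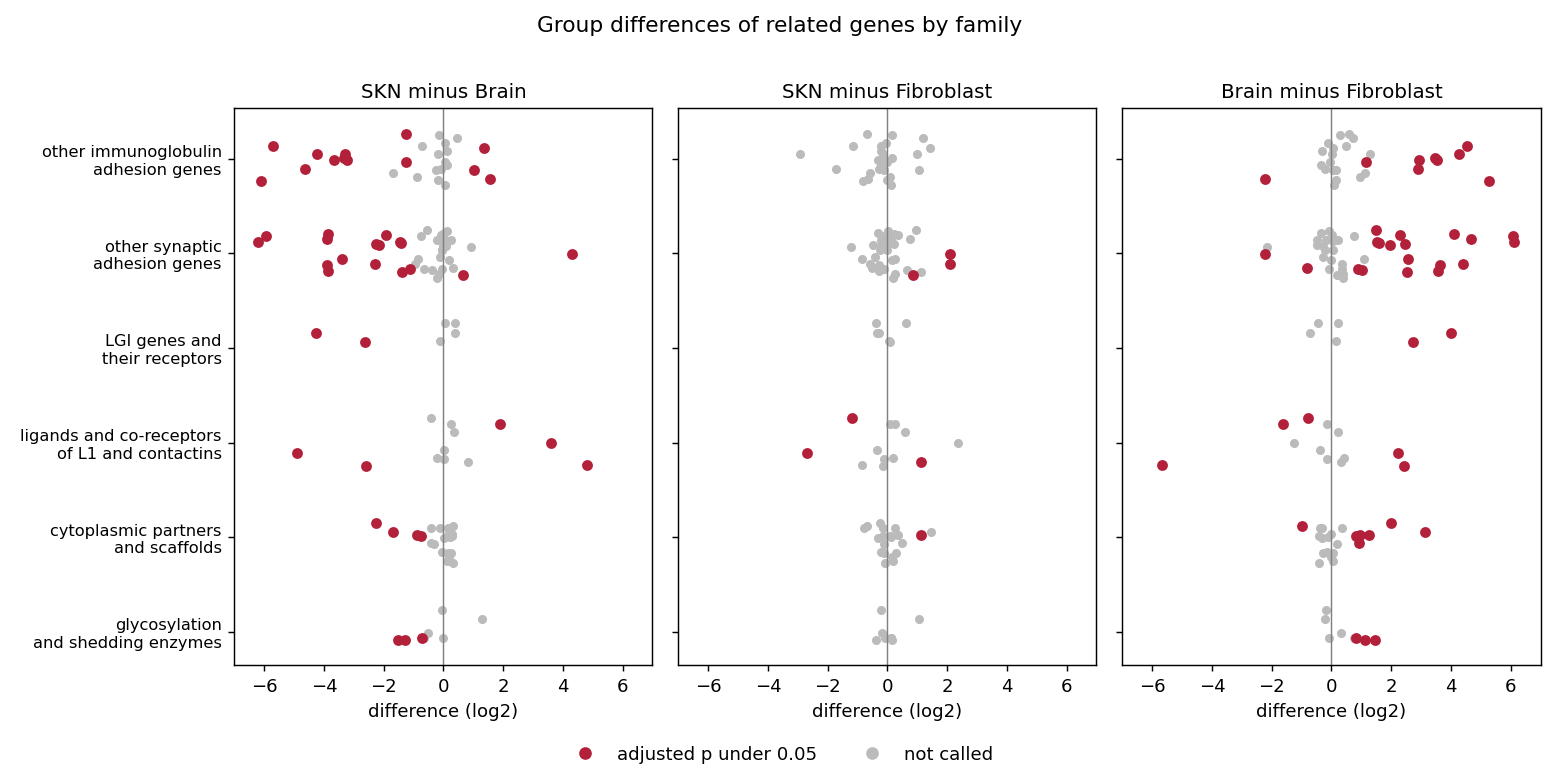
Log2 differences of 115 related genes in 6 lists (rows) for SKN minus Brain, SKN minus Fibroblast and Brain minus Fibroblast, with genes at an adjusted p under 0.05 in red and the others in grey. Synaptic and immunoglobulin adhesion genes spread towards lower values in SKN minus Brain and higher values in Brain minus Fibroblast, with 15 of 41 and 10 of 27 called lower in SKN than in Brain.

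Among other immunoglobulin adhesion genes, 10 of 27 were called lower and 3 higher in SKN than in Brain, and 8 were called higher and 1 lower in Brain than in Fibroblast. Between SKN and Fibroblast, 0 were called, with 7 at an unadjusted p under 0.05 in limma's test. The share of all genes at that unadjusted threshold is not given here, so nothing is read from the 7 or from such counts in other lists. NCAM2 was lower in SKN than in Brain by limma (-6.10 ± 0.83, adjusted p 0.00159), and it read 3.80, 3.00 and 3.53 in SKN, 9.28, 9.60 and 9.73 in Brain, and 6.57, 3.19 and 2.98 in Fibroblast. CADM4, a nectin-like molecule that Schwann cells use to bind axons, was lower by -5.69 ± 0.43 (adjusted p 7.39e-05), MCAM by -4.62 ± 0.42 (1.79e-04) and HEPACAM, a glial adhesion molecule, by -3.67 ± 0.20 (1.45e-05). In Brain against Fibroblast the leading genes were NCAM2 (5.29 ± 0.83), CADM4 (4.55 ± 0.43), CADM3 (4.27 ± 0.30), HEPACAM (3.52 ± 0.20) and CADM1 (3.48 ± 0.45). MDGA2, which binds neuroligins and keeps them from neurexins, was lower in SKN than in Brain (-4.24 ± 0.83, adjusted p 0.00917 by limma) but varied in Fibroblast, at 4.25, 8.07 and 5.88.

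The other contactins were named after their values were seen. CNTN3, CNTN4, CNTN5 and CNTN6 read between 1.99 and 3.14 on all 9 arrays, without a call. CNTN2 read 4.29, 4.50 and 4.50 in SKN, 5.01, 5.66 and 7.70 in Brain, and 5.46, 5.01 and 4.51 in Fibroblast. Every Brain array of CNTN2 lay above every SKN array, at -1.69 ± 0.60 for SKN minus Brain, without a call (adjusted p 0.0955 by limma).

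Among other synaptic adhesion genes, 15 of 41 were called lower and 2 higher in SKN than in Brain, 17 higher and 2 lower in Brain than in Fibroblast, and 3 higher and 0 lower in SKN than in Fibroblast. NTNG1, netrin-G1, the binding partner of LRRC4C, read 3.55, 4.67 and 3.93 in SKN, 10.26, 10.16 and 10.35 in Brain, and 5.27, 3.71 and 3.43 in Fibroblast. NTNG1 was lower in SKN than in Brain by -6.20 ± 0.46 (adjusted p 7.18e-05 by limma) and higher in Brain than in Fibroblast by 6.12 ± 0.46 (9.37e-05). The neuroligin NLGN1 was lower in SKN than in Brain by -3.91 ± 0.31 (adjusted p 9.62e-05 by limma), with Brain arrays at 7.61, 8.22 and 8.15, and higher in Brain than in Fibroblast by 4.66 ± 0.31 (5.08e-05). Of the other neuroligins, named after their values were seen, NLGN3 was also called in both, at -1.44 ± 0.22 and 1.51 ± 0.22, while NLGN2 was called in neither, at -0.20 ± 0.12 and 0.38 ± 0.12. Of the neurexins, NRXN3 read 4.95, 4.66 and 4.79 in SKN, 3.68, 4.33 and 4.40 in Brain, and 3.95, 3.90 and 3.98 in Fibroblast. Its call in SKN minus Fibroblast (0.86 ± 0.19, adjusted p 0.0490 by limma) ended in 8 of the 9 removals of 1 array, at up to 0.146.

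Latrophilins and their FLRT and teneurin partners differed among themselves. ADGRL2 was higher in Brain than in Fibroblast (4.39 ± 0.39, adjusted p 1.99e-04 by limma) and ADGRL3 likewise (4.09 ± 0.57, 0.00165). ADGRL2 was also called higher in SKN than in Fibroblast (2.09 ± 0.39, adjusted p 0.0258 by limma), a call that ended in 5 of 9 removals of 1 array, at up to 0.0931 without SKN 1. TENM1, a teneurin, was lower in SKN than in Brain (-3.89 ± 0.33, adjusted p 1.21e-04 by limma). FLRT1 (-3.40 ± 0.31, adjusted p 1.83e-04 by limma) and FLRT3 (-1.40 ± 0.33, 0.0225), named after their values were seen, were also lower in SKN than in Brain. FLRT2 ran the other way. FLRT2 read 8.81, 8.51 and 8.41 in SKN, 4.12, 4.18 and 4.51 in Brain, and 6.16, 6.84 and 6.49 in Fibroblast, so that SKN was the highest group (4.31 ± 0.20 over Brain, adjusted p 5.92e-06, and 2.08 ± 0.20 over Fibroblast, 0.00138, both by limma). SLITRK6 was lower in SKN than in Brain by -5.95 ± 1.21 (adjusted p 0.0114 by limma) and higher in Brain than in Fibroblast by 6.08 ± 1.21.

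In the list of LGI genes and their ADAM receptors, LGI4 and ADAM23 were called lower in SKN than in Brain and higher in Brain than in Fibroblast, and the other 4 measured genes were called in neither. LGI4, the LGI protein that acts in Schwann cell myelination, read 5.75, 6.01 and 6.23 in SKN, 8.36, 8.90 and 8.61 in Brain, and 5.93, 6.17 and 5.58 in Fibroblast (-2.63 ± 0.20 for SKN minus Brain, adjusted p 8.33e-05 by limma). ADAM23, a catalytically inactive ADAM that binds LGI proteins, read 2.46, 2.24 and 2.85 in SKN, 7.35, 6.84 and 6.21 in Brain, and 2.82, 2.65 and 2.95 in Fibroblast (-4.28 ± 0.28, 3.46e-05). LGI1 and LGI2 read low, with no array above 4.02. Of the other receptors, ADAM22 averaged 5.83 in SKN, 5.45 in Brain and 6.17 in Fibroblast, and ADAM11 averaged 4.29, 4.24 and 4.67. LGI4 in Fibroblast 1 was within its group, whereas LGI3 there was raised by 2.26. In SKN against Fibroblast 0 of the 6 LGI genes and receptors were called, with 0 at an unadjusted p under 0.05 in limma's test.

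Ligands and co-receptors of L1 proteins and contactins went both ways. Of 12 genes 2 were called lower and 3 higher in SKN than in Brain, 2 higher and 3 lower in Brain than in Fibroblast, and 1 higher and 2 lower in SKN than in Fibroblast. TNC, the matrix protein tenascin-C, which binds CNTN1, was higher in SKN than in Brain (4.81 ± 0.61, adjusted p 0.00112 by limma) and lower in Brain than in Fibroblast (-5.67 ± 0.61, 4.91e-04). NRP1, a semaphorin receptor that joins with L1CAM, was also higher in SKN than in Brain (1.88 ± 0.15, adjusted p 9.04e-05 by limma), as was GLDN, gliomedin, which binds NFASC and NRCAM at nodes (3.61 ± 0.60, 0.00426). ITGAV, an integrin chain, was lower in SKN than in Fibroblast (-1.18 ± 0.19, adjusted p 0.0147 by limma), a call lost without Fibroblast 2, Fibroblast 3 or SKN 3, at up to 0.0606. PTPRZ1, a receptor phosphatase that binds CNTN1, read 2.86, 2.78 and 2.89 in SKN, 3.49, 6.44 and 6.35 in Brain, and 3.05, 3.02 and 2.88 in Fibroblast, with Brain 1 low as for CNTN1. The PTPRZ1 call in SKN minus Brain (-2.58 ± 0.67, adjusted p 0.0325 by limma) ended in 8 of 9 removals of 1 array, at up to 0.103. CNTNAP5, a contactin-associated protein, was lower in SKN than in Brain (-4.91 ± 0.47, adjusted p 2.61e-04 by limma) and lower in SKN than in Fibroblast (-2.68 ± 0.47, 0.0209), the order also seen for LIN7A. The CNTNAP5 call in SKN minus Fibroblast ended without Fibroblast 2, SKN 1 or SKN 3, at an adjusted p of up to 0.0718 by limma. CNTNAP4 was called higher in SKN than in Fibroblast (1.14 ± 0.24, adjusted p 0.0422 by limma), a call that ended in all 9 removals of 1 array, at up to 0.123.

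Of 21 cytoplasmic scaffolds and anchors, 4 (19.0%) were called lower and 0 higher in SKN than in Brain. Over all genes these shares were 11.7% and 10.9%, and the list's median difference for SKN minus Brain was 0.13. In Brain against Fibroblast, 6 (28.6%) were called higher and 1 (4.76%) lower, beside 13.8% and 13.2% of all genes. In SKN against Fibroblast, 1 (4.76%) was called higher and 0 lower, beside 2.45% and 2.10%. ANK3, ankyrin-G, which binds the tails of L1-family proteins, was lower in SKN than in Brain (-2.24 ± 0.32, adjusted p 0.00192 by limma) and higher in Brain than in Fibroblast (1.99 ± 0.32, 0.00312). ANK2 was higher than in Fibroblast in SKN (1.13 ± 0.18, adjusted p 0.0134 by limma) and in Brain (0.97 ± 0.18, 0.00635), and the SKN call was lost without Fibroblast 3 (0.0591) or SKN 1 (0.0507). DLG2, a synaptic scaffold, was higher in Brain than in Fibroblast by 3.13 ± 0.42 (adjusted p 0.00147 by limma). Its call in SKN minus Brain (-1.68 ± 0.42, adjusted p 0.0287 by limma) ended in 4 removals, at up to 0.103.

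The relatives of LIN7A were measured as well. LIN7C read 8.04, 8.04 and 7.97 in SKN, 8.68, 9.04 and 9.03 in Brain, and 7.89, 7.44 and 7.67 in Fibroblast, so that SKN lay above Fibroblast, where LIN7A lay below it. LIN7C was lower in SKN than in Brain by -0.90 ± 0.15 (adjusted p 0.00396 by limma). It was higher in Brain than in Fibroblast by 1.25 ± 0.15 (adjusted p 7.63e-04 by limma) and was not called in SKN minus Fibroblast. LIN7B, named after its values were seen, averaged 5.67 in SKN, 5.73 in Brain and 5.90 in Fibroblast, without a call. CASK, the kinase-like scaffold that LIN7 proteins bind, was lower in Brain than in Fibroblast (adjusted p 0.00442 by limma). CASK averaged 9.46 in SKN, 9.14 in Brain and 10.14 in Fibroblast.

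Of 8 enzymes that modify or shed these molecules, 3 were called lower and 0 higher in SKN than in Brain, the same counts were higher and lower in Brain than in Fibroblast, and 0 were called between SKN and Fibroblast, with 0 at an unadjusted p under 0.05 in limma's test. ADAM10, a sheddase of L1CAM, was lower in SKN than in Brain by -1.29 ± 0.12 (adjusted p 1.74e-04 by limma) and ADAM17 by -1.51 ± 0.19 (0.00101). CHST10, which sulfates the HNK-1 sugar carried by NCAM1 and L1CAM, was lower by -0.70 ± 0.15 (adjusted p 0.0125 by limma). The polysialic acid transferases of NCAM1 were not called in any comparison. ST8SIA2 read 6.67, 6.69 and 5.75 in SKN, 4.38, 6.51 and 4.38 in Brain, and 5.42, 5.08 and 5.40 in Fibroblast, and ST8SIA4 averaged 4.43 in SKN, 5.07 in Brain and 4.32 in Fibroblast.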

How the data were processed

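The authors deposited 1 table of 32205 probe sets on 9 arrays, used here as log2 signals without further change. Tools listed in the submitters' processing notes are MAS5, Partek and RMA, whose roles and versions are not stated, and the genome build is not given in the sources used here. The log base was inferred from the range and the nearly equal medians of the arrays. The platform table gave 1 symbol for 16545 probe sets, several for 370 and none for 15290.

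All 9 arrays entered 1 model of group means in limma 3.58.1 (R 4.3.3), with 6 residual and 2.41 prior degrees of freedom. Limma's 2-sided p-values received the Benjamini-Hochberg adjustment across the whole table, with 0.05 as the threshold. No filter was applied, and the fit was tested on simulated data. The number of arrays limits the precision.

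The members and lists were chosen with earlier results of these data known. The 6 related lists cover immunoglobulin adhesion, synaptic adhesion, LGI genes, ligands and co-receptors, cytoplasmic partners, and glycosylation and shedding, and 10 lists hold cell type markers. Of 123 related genes 115 were measured, and the rest were not analysed here. Related genes were named by a rule, up to 5 called genes per list and comparison with the largest difference and no overlap, plus genes whose role beside a member is described. The nearest profile of each member was named too. No sequences were used. Alternatives changed the variance moderation, array weights, normalization, filter, replicate block, probe set per gene, arrays in the fit and each array in turn.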

Additional observations from a re-analysis of the deposited data

How the results depend on the processing

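The 10 members gave 507 of 528 differences with the same sign and side of the threshold under the alternatives, with 7 calls lost, 1 gained and 13 signs turned. The 7 lost calls were those of NCAM1, CNTN1 and LIN7A, without variance moderation, without Brain 2 or with Fibroblast 1 and Brain 3 both left out, and the 1 gained was that of CHL1 in SKN minus Fibroblast without Fibroblast 1. All 13 turned signs belong to differences that were not called. In SKN minus Fibroblast, NCAM1 turned to 0.05 without Fibroblast 1, 0.09 without Fibroblast 2, 0.16 without SKN 2 and 0.05 with Fibroblast 1 and Brain 3 both left out. LRRC4C turned to -0.18 with array weights, -0.09 without Fibroblast 2, -0.07 without Fibroblast 3 and -0.26 without SKN 1, and LGI3 to -0.32, -0.42, -0.17 and -0.09 under the same settings. NFASC in Brain minus Fibroblast turned to -0.02 without Brain 2. Over the 9 removals of 1 array these differences ran from -0.93 to 0.16 for NCAM1, -0.26 to 1.17 for LRRC4C, -0.42 to 0.84 for LGI3 and -0.02 to 0.34 for NFASC.

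The count of members called in SKN minus Fibroblast was 1, and it was 0 without variance moderation and between 1 and 2 when 1 array was left out. In SKN minus Brain it was 9 in every removal of 1 array, and in Brain minus Fibroblast 7 to 8. With the lower 50% of probe sets by mean left out, 6 members were called in SKN minus Brain and 5 in Brain minus Fibroblast. Members with low means were no longer in the table there. With Fibroblast 1 and Brain 3 both left out, 7 members were called in SKN minus Brain and 6 in Brain minus Fibroblast. Leaving out 1 array gave 36 to 42 related genes called in SKN minus Brain, 2 to 7 in SKN minus Fibroblast and 41 to 45 in Brain minus Fibroblast, and 3530 to 4986, 513 to 1095 and 4876 to 6365 probe sets, against 5271, 1076 and 6638 with all arrays. Related genes called in SKN minus Fibroblast were 1 without variance moderation and 4 with Fibroblast 1 and Brain 3 both left out. Probe sets called in SKN minus Fibroblast were 488 without variance moderation, and with Fibroblast 1 and Brain 3 both left out they were 516, against 3366 in SKN minus Brain and 3657 in Brain minus Fibroblast. The arrays share replicate numbers. Deviations of same-numbered arrays correlated at -0.04 to 0.15, and an array's best match carried its own number in 8 of 18 cases. These correlations cannot tell whether same-numbered cultures share a dog, so a pairing is neither assumed nor excluded. With the replicate block 3 related genes were called in SKN minus Fibroblast, and the block changed no call of a member. Apart from arrays left out and the lower probe sets removed by construction, the cause of these changes was not tested.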

Other observations

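The median SD over the 10 members was 0.29 log2 units in SKN, 0.34 in Brain and 0.95 in Fibroblast, while over all genes it was 0.15, 0.16 and 0.16. In Brain, 2 members, CNTN1 and NLGN4X, lay at least 1 unit lower in Brain 1 than in both other Brain arrays. Of all 15947 named genes, 188 lay as far below there. Brain 1 lay as far above both for 136 genes. A related gene with the same low array was PTPRZ1, and in SYT1, a synaptic vesicle protein, Brain 1 read 3.98 against 6.21 and 6.58. ELAVL4, from the same neuron marker list as SYT1, went the other way. Its Brain 1 signal was 5.83, while Brain 2 and 3 read no higher than 3.00. IL1RAPL2, a synaptic adhesion receptor, had another low array, reading 6.68, 3.83 and 7.48 in Brain 1, 2 and 3. These genes were picked after their values were seen.

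The neuron markers differed among themselves. Of the 9 measured, 3 were called higher in SKN than in Brain, STMN2, GAP43 and NEFM, and 1 was called lower, MAP2. Over all genes these shares were 10.9% and 11.7%. MAP2, a dendritic microtubule protein, read 3.84, 3.71 and 3.57 in SKN, 8.51, 9.50 and 9.38 in Brain, and 3.92, 3.84 and 3.77 in Fibroblast. STMN2, a microtubule-binding protein of neurites, read 8.26, 6.08 and 6.64 in SKN, 3.68, 3.06 and 3.61 in Brain, and 3.09, 3.35 and 2.80 in Fibroblast. RBFOX3, the neuronal nuclear antigen, read between 4.15 and 4.47 on all 9 arrays, and SNAP25, a presynaptic fusion protein, between 2.56 and 3.39.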
